A study of Mus musculus with 2 samples.

Results

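The cells described here are keratinocytes of mouse back skin that each carried RNA of at least 2 of 6 genes. These were Krt24, a type I keratin, Grem1, which encodes the secreted bone morphogenetic protein (BMP) antagonist gremlin 1, and Wfdc3, Angptl7, Col8a2 and Il31ra. Krt24 and Grem1, the most often found, were present in 204 and 195 of the cells and together in 120. The cells were 330 of the 8899 cell barcodes kept in the skin library, or 3.71% (95% exact Clopper-Pearson interval 3.33 to 4.12), and of 13598 kept barcodes in the skin and preputial gland (PG) libraries together. Both tissues came from 3 male wild type C57BL/6 mice aged 52 weeks, whose cells were pooled into 1 library per tissue, so there is no replicate and the 3 animals cannot be separated. RNA was read by droplet-based single-cell sequencing of transcript 3′ ends, and each molecule was counted once through its unique molecular identifier (UMI). No test between groups of cells is therefore possible, and every interval below covers counting error only.

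The hair follicle is a cylinder of keratinocytes around the hair. Its permanent lower part, the bulge, holds slow-cycling stem cells that rebuild the follicle at each new hair cycle, whereas the isthmus and infundibulum above it open towards the sebaceous gland and the skin surface. Bulge stem cells are known for the surface glycoprotein CD34, the transcription factors SOX9, LHX2, TCF7L1 and NFATC1, and high keratin 15. They rest while BMP signalling is high and Wnt signalling is low, and the secreted inhibitors of both pathways are part of that balance.

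The members were chosen by measured values. A barcode needed at least 500 genes, 1000 UMIs and at most 10% mitochondrial UMIs, which left 8899. Of these, 5046 had at least 20 UMIs of Krt5, Krt14 and Krt15 together per 10000, 346 of them held at least 1 UMI in 2 or more of the 6 genes above, and 342 of those had fewer than 3 of the 7 upper follicle genes Sostdc1, Vsnl1, Gata6, Lrig1, Krt79, Aldh3a1 and Sox7. A limit of 100 per 10000 on the differentiation keratins Krt1 and Krt10 left 330. In this group 174 cells had exactly 2 of the 6 genes, 115 had 3, 36 had 4, 4 had 5, and 1 had all 6. Of the 7 genes, 197 members had none, 115 had 1 and 18 had 2.

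The members held 721244 UMIs in all, with a median of 1705 per cell (1002 to 13506), a median of 806 genes and a median mitochondrial share of 2.67%. They were set beside other cells of the same library, so library and mice were shared. The main comparison group, unmarked keratinocytes, had at least 100 keratin UMIs per 10000, none of the 6 and none of the 7 genes and the same limit on Krt1 and Krt10. It comprised 1904 cells with a median of 2544 UMIs. Upper follicle keratinocytes, with 3 or more of the 7 genes and fewer than 2 of the 6, comprised 168 cells with a median of 3191.5 UMIs. The members were thus shallower than both groups, and levels are given as counts per 1000000 UMIs (CPM), from the summed UMIs of a group.

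The genes that defined the cells lie on 4 chromosomes (GENCODE M21 annotation of mm10, which is GRCm38). Krt24 (ENSMUSG00000020913) spans chr11:99279959-99285262 on the minus strand, in the type I keratin family. Grem1 (ENSMUSG00000074934) spans chr2:113746164-113758646, and Wfdc3 (ENSMUSG00000076434), which encodes a small protein with WAP domains, chr2:164731180-164745931, both on the minus strand. Angptl7 (ENSMUSG00000028989), a secreted angiopoietin-like protein, spans chr4:148495183-148500460 on the minus strand, and Col8a2 (ENSMUSG00000056174), a chain of the short-chain collagen VIII, chr4:126286793-126314330 on the plus strand. Il31ra (ENSMUSG00000050377), a subunit of the receptor for the itch cytokine interleukin 31, spans chr13:112519898-112594360 on the minus strand. All are annotated as protein-coding.

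The sequences before the start sites of the 2 genes that name the cells are shown because nuclear factors of the bulge were themselves among the transcripts of these cells, as described further on. Each run is the 250 bases before the RefSeq start (GRCm38.p6), read 5′ to 3′ on the strand of the gene. Capitals mark any match, on either strand, to 1 of 5 short motifs: TGTGGT (Runx), GGAAAA (NFAT), ACAAAG (Sox), CTTTGA (Tcf/Lef) and TAATTA (LIM homeodomain).
Krt24, chr11:99285263-99285512, minus strand: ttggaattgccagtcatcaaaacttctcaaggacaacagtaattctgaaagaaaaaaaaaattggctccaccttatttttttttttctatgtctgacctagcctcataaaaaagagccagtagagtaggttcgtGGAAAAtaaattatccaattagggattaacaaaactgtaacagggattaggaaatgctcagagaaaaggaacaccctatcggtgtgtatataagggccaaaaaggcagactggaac
Grem1, chr2:113758649-113758898, minus strand: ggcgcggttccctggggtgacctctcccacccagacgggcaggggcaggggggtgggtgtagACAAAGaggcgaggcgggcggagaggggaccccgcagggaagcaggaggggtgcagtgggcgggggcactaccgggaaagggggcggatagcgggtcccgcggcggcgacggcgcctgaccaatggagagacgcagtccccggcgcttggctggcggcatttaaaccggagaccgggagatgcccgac
The Krt24 run held 1 NFAT match and the Grem1 run 1 Sox match. Among the other genes, Wfdc3 had 1 Tcf/Lef match and Il31ra 2 Sox matches, and Angptl7 and Col8a2 had none of the 5 motifs. The Sox motif, read on its reverse strand, shares the letters CTTTG with the Tcf/Lef motif, so the matches of both families are related. These letters are common: of 32851 windows of this length before RefSeq starts, 20.4% held the NFAT motif, 16.5% the Sox motif, 13.8% the Tcf/Lef motif, 14.0% the Runx motif and 4.84% the LIM homeodomain motif. A match is a description of the sequence and says nothing about binding.

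As the rule required, the 6 genes were present in the members and at 0 UMIs in unmarked keratinocytes, so the following levels are a description. Krt24 stood at 610.1 CPM (554 to 670), with UMIs in 204 of the 330 cells, and Grem1 at 494 CPM (444 to 548) in 195 cells. Angptl7 reached 379 CPM (335 to 426), Wfdc3 277 CPM (240.2 to 319) and Il31ra 205 CPM (173 to 241). Col8a2 was the sparsest, at 103 CPM (80.6 to 129) in 68 cells. The genes occurred in overlapping but not identical sets of cells: Krt24 and Grem1 were found together in 120 members, Krt24 and Angptl7 in 82, and Col8a2 and Il31ra in 12. In a single cell the levels ran from 0 to 56.7 per 10000 UMIs for Krt24 and from 0 to 83.4 for Angptl7.

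**Figure D1:**
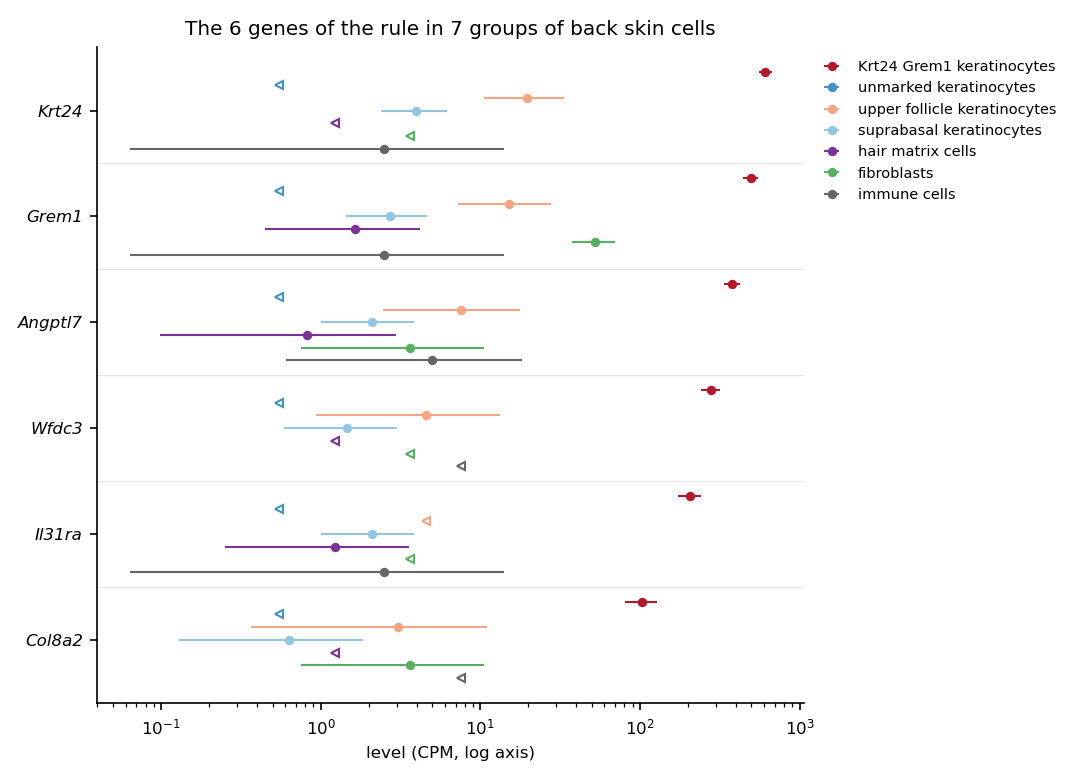
Level of the 6 genes of the rule in 7 groups of back skin cells, in CPM on a log axis, with 95% exact Poisson intervals; open triangles mark groups with 0 UMIs, at the limit of 3 counts. The members lie between 103 and 610.1 CPM, and the next highest point is Grem1 in fibroblasts at 52.1 CPM.

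Since the members were chosen for holding these genes, their share of the RNA of each is fixed in part by the rule and describes only how much the rule left out. They held 70.4% of all Angptl7 UMIs among the 8899 kept barcodes, 66.1% of Krt24, 65.2% of Il31ra, 61.7% of Col8a2, 57.4% of Grem1 and 45.0% of Wfdc3. Of the 6 other groups plotted, fibroblasts held the most Grem1, which fibroblasts secrete in several tissues. Fibroblasts (393 cells) held it at 52.1 CPM, whereas hair matrix cells (480 cells) held it at 1.64 CPM and immune cells (173 cells) at 2.51 CPM. In RNA outside cells, estimated from 483984 skin barcodes with at most 50 UMIs, Krt24 stood at 19.6 CPM and Grem1 at 14.3 CPM.

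Among the keratins, Krt15 was higher and Krt14 lower in the members than in both comparison groups. Keratin 15 RNA was found in 97.6% of the members at 12582 CPM (12325 to 12844), against 8961 CPM in unmarked and 7198 CPM in upper follicle keratinocytes. Krt14 was lower, at 2871 CPM against 9248 and 5493 CPM, and had UMIs in 64.5% of the members. Krt5 stood at 2996 CPM against 4746 and 2887 CPM. The sum of the 3 had to reach 20 per 10000 in the members but 100 in both comparison groups. Of the members, 47 were under 100. The levels of Krt5, Krt14 and Krt15 are thus fixed in part by these limits and are a description. Krt14 also differed within the members, with 1274 CPM in subgroup 1 and 5442 CPM in subgroup 2, described below. These 3 keratins entered the rule only as a sum. Krt17, which did not enter it and marks the outer root sheath, stood at 2378 CPM (2267 to 2493) in the members and 2242 CPM in upper follicle keratinocytes, a log2 ratio of 0.09 (-0.02 to 0.19), and at 541 CPM in unmarked keratinocytes. Its log2 ratio to the latter was 2.14, and 1.496 when members also needed a keratin sum of 100 per 10000.

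The label of a follicle keratinocyte was set beside genes that the rule did not use. They were chosen with earlier results of these data known, so the comparison is a description. A list of 18 genes of bulge stem cells summed to 4847 CPM (4688 to 5011) in the members, 554 CPM (534 to 574) in unmarked and 975 CPM (901 to 1053) in upper follicle keratinocytes. Fibroblasts held this list at 1907 CPM, and fibroblast genes were themselves higher in the members, as given below. Against unmarked keratinocytes, 16 of the 18 genes had enough UMIs to be compared (at least 20 CPM in either group), and 15 of these were at least 2-fold higher in the members, none 2-fold lower, with a median log2 ratio of 3.52. Of all 6012 genes compared, 12.2% were at least 2-fold higher and 5.87% at least 2-fold lower, and the median log2 ratio was 0.10. A filter that a gene can pass through the members alone favours higher genes: 9 of the 16 passed in that way. Of the 7 that reached 20 CPM in unmarked keratinocytes 6 were at least 2-fold higher, beside 4.02% of the 4999 genes of that kind.

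The surface and matrix proteins of the bulge were among them. Cd34 stood at 503 CPM (453 to 558) in the members, 19.9 CPM in unmarked and 13.6 CPM in upper follicle keratinocytes. Its log2 ratio to unmarked keratinocytes was 4.66 (4.35 to 4.99), and 5.53 without the highest doublet scores. Fibroblasts, which also carry Cd34, held 803 CPM. Postn, the matrix protein periostin, stood at 1524 CPM (1435 to 1617) against 47.8 and 111 CPM and had UMIs in 85.8% of the members. Npnt, which encodes the basement membrane protein nephronectin, stood at 95.7 CPM against 22.3 and 10.6 CPM. Ccn2, a matricellular growth factor, stood at 323 CPM against 5.34 and 25.8 CPM. All 4 were more than 4-fold higher in the members than in either comparison group.

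The transcription factors of the bulge list showed the same order against unmarked keratinocytes, and a smaller difference from the upper follicle for some. Lhx2 stood at 380 CPM (336 to 428) against 13.8 CPM in unmarked and 33.3 CPM in upper follicle keratinocytes. Sox9, which is also used above the bulge, stood at 501 CPM (450.2 to 555) against 47.65 CPM and 256 CPM, log2 ratios of 3.39 (3.16 to 3.63) and 0.97 (0.70 to 1.24). Nfatc1 stood at 83.2 CPM against 11.04 and 39.4 CPM and Runx1 at 157 CPM against 19.7 and 100.03 CPM. Tbx1 stood at 118 CPM against 9.38 and 15.2 CPM. Foxc1, at 87.35 CPM against 5.70 and 59.1 CPM, differed from the upper follicle by a log2 ratio of 0.56, with an interval from -0.04 to 1.18 that includes 0.

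Of the remaining genes of that list, Lgr5, the R-spondin receptor of active stem cells, stood at 62.4 CPM against 3.68 and 3.03 CPM, and Fgf18, a growth factor that keeps the bulge at rest, at 29.1 CPM against 1.66 CPM and 0 UMIs. Hopx was the compared gene under 2-fold, at 434 CPM against 227 CPM, a log2 ratio of 0.94 (0.75 to 1.12). Tcf7l1, with 12.5 CPM against 2.39 CPM, and Dio2, with 5.55 CPM against 6.07 CPM, had too few UMIs to be compared. Against upper follicle keratinocytes 13 of 16 genes were at least 2-fold higher and none lower, with a median log2 ratio of 2.38, beside 9.6% higher and 7.23% lower of the 6166 genes compared and a median of -0.01. Of the 11 genes at 20 CPM or more in the upper follicle, 8 were at least 2-fold higher, beside 2.94% of the 5275 genes of that kind.

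**Figure D2:**
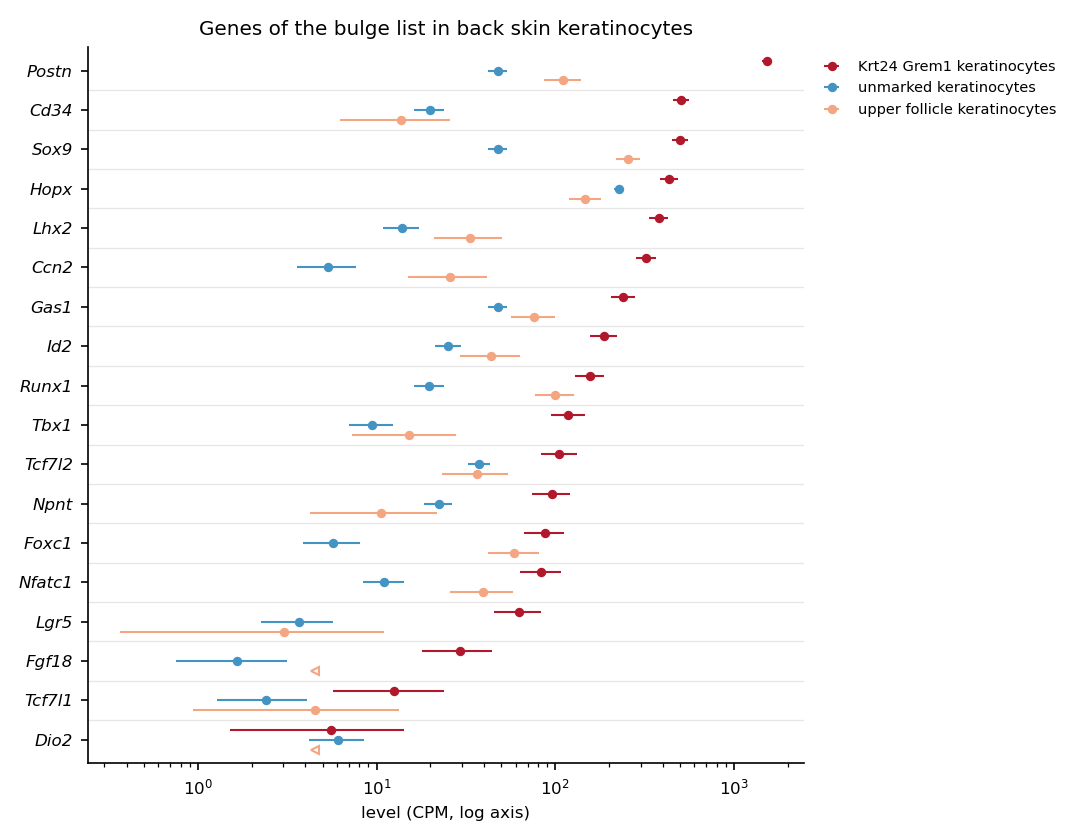
Level of the 18 genes of the bulge list in CPM on a log axis, with 95% exact Poisson intervals, in the members (330 cells), unmarked keratinocytes (1904 cells) and upper follicle keratinocytes (168 cells); triangles mark 0 UMIs at the limit of 3 counts. The members stand above unmarked keratinocytes at 17 of the 18 genes, Dio2 being the exception with 5.55 against 6.07 CPM.

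Shares of cells with a UMI gave the same order at equal depth. After every cell had been thinned to 1000 UMIs, Postn was found in 73.3% of the members, 4.10% of unmarked and 0.578% of immune cells, which lack it. Cd34 was found in 42.4%, 2.15% and 1.73%, and Lhx2 in 36.1%, 1.63% and 0.578%. Without thinning, the shares in the members were 85.8%, 57.0% and 51.5%, at a median depth of 1705 UMIs against 1928 in immune cells. The share in the immune cells is the level that free RNA alone may give.

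The bulge list was also higher the more of the 6 genes were found in a cell, although none of its genes is among them. The cells of this comparison were sorted by the genes of the rule, so it is a description. Among skin keratinocytes that met the other limits, the list summed to 776 CPM in the 3626 cells with none of the 6 genes, 2955 CPM in the 412 cells with 1, 4557 CPM in the 174 members with 2, 4999 CPM in the 115 with 3 and 5548 CPM (5079 to 6049) in the 41 with 4 or more. Cd34 went from 27.3 CPM at none to 260.01 CPM at 1 gene, 383 CPM at 2, 624 CPM at 3 and 625 CPM at 4 or more. Lhx2 went from 33.0 to 270 CPM at 1 gene and 420.2 CPM at 4 or more. Sox9 did not follow this order above 2 genes, at 541, 489 and 377 CPM in cells with 2, 3 and 4 or more. The cells with 1 gene, which lie just outside the rule, were thus between the members and the cells with none, at a median depth of 1792 UMIs against 2514.5 in the latter.

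**Figure D3:**
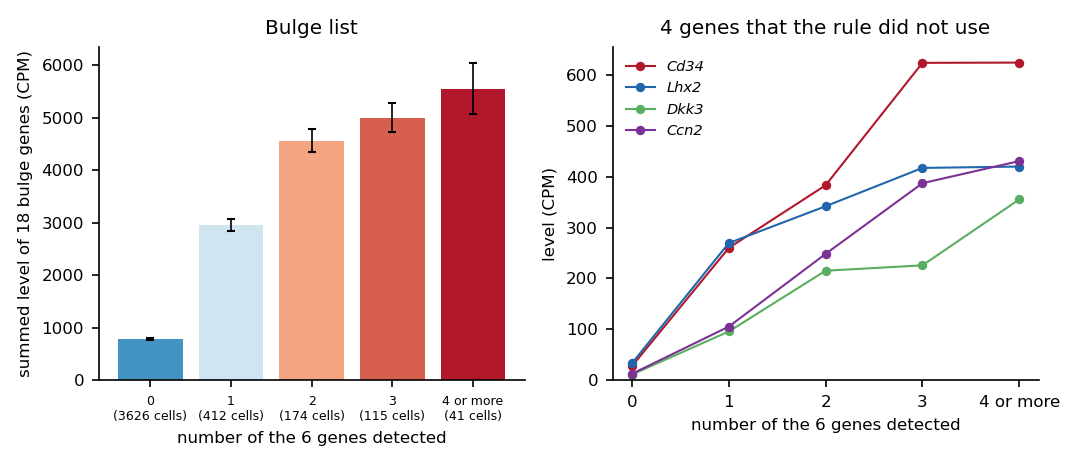
Left, summed level of the 18 bulge genes in CPM, with 95% exact Poisson intervals, by the number of the 6 genes of the rule found in a cell; right, the levels in CPM of Cd34, Lhx2, Dkk3 and Ccn2 in the same cells. Bars and lines start low at 0 genes (776 CPM for the list) and reach 5548 CPM at 4 or more.

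Cells just outside the other limits were few, and were set beside the members just inside. The 14 cells that failed only the keratin limit had a bulge list level of 2560.0 CPM, beside 3353 CPM in the 12 members with a keratin sum under 40 per 10000. The 12 cells that failed only the Krt1 and Krt10 limit stood at 1597 CPM, beside 1608 CPM in the 9 members with 50 to 100 per 10000. The 4 cells that failed only through 3 or more of the 7 genes stood at 2263 CPM, beside 3619 CPM in the 18 members with 2. Members near the Krt1 and Krt10 limit were also deeper, with a median of 5820.0 UMIs.

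Over all genes, 733 of 6012 were at least 2-fold higher and 353 at least 2-fold lower in the members than in unmarked keratinocytes. Apart from genes of the bulge list already described, the largest ratios (of genes that reached 50 CPM in the members and were found in 10% of them) were those of Serpinb11, a serine protease inhibitor family member, at 220.4 CPM against 2.76 CPM, and of Fgf1, a fibroblast growth factor, at 51.3 CPM against 0.92 CPM. Ltbp2, which encodes a latent TGF-β binding protein of elastic fibres, and Gfra1, a receptor for glial cell line-derived neurotrophic factor, each stood at 67.9 CPM against 1.29 CPM. Chat, the enzyme that makes acetylcholine, stood at 54.1 CPM against 1.29 CPM. Tgm5, an epidermal transglutaminase, stood at 277 CPM against 6.81 CPM and was found in 41.2% of the members. The log2 ratios of these 6 genes lay between 5.35 for Tgm5 and 6.32 for Serpinb11.

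The next genes in that order, apart from Dkk3 and Fzd3, which are given with the Wnt genes below, were of varied function. Aspn, the small matrix proteoglycan asporin, stood at 154 CPM against 4.42 CPM, with 610.1 CPM in fibroblasts. Sema3e, a secreted semaphorin, stood at 186 CPM against 5.70 CPM, and Cd200, an immune-restraining surface protein long used to sort bulge cells, at 175 CPM against 6.44 CPM. Ank, a pyrophosphate transporter, stood at 165 CPM against 7.54 CPM. Dab2, an endocytic adaptor, and Adcy1, an adenylyl cyclase, stood at 81.8 and 54.1 CPM against 3.495 and 2.39 CPM. In cells with at least 1000 genes and 2000 UMIs their log2 ratios went from 4.55 to 3.35 and from 4.50 to 7.17. Without the highest doublet scores Dab2 was at 5.56. Pdzrn4 and Trabd2b stood at 108 and 52.7 CPM against 4.05 and 2.39 CPM. All of these were higher against the upper follicle as well.

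At the other end of the order stood genes that were lower in the members. Hist1h1b, a linker histone made in S phase, stood at 16.6 CPM against 259 CPM, 15.6-fold lower, with a log2 ratio of -3.96 that was -6.66 in members with 0 of the 7 genes and -3.22 in those with at least 3 of the 6. Ifi202b, an interferon-inducible gene, stood at 49.9 CPM against 493 CPM. Serpinb2, a protease inhibitor of stressed and surface keratinocytes, stood at 201 CPM against 1684 CPM, and Epgn, the epidermal growth factor receptor ligand epigen, at 16.6 CPM against 115 CPM. Krt16 stood at 37.4 CPM against 203 CPM and Il6ra, the interleukin 6 receptor, at 13.9 CPM against 71.8 CPM. Cks2, Tcim, Gm20186, Ikzf2 and Rspo3 were 4.94-fold to 7.08-fold lower. When the rule was applied after thinning, the log2 ratio of Ifi202b went from -3.30 to -5.31 and that of Serpinb2 from -3.07 to -4.62. Krt16 went from -2.44 to -4.43 and Ikzf2 from -2.31 to -4.24. In the other direction, Ifi202b and Serpinb2 stood at -2.17 and -2.23 without a limit on Krt1 and Krt10. Ikzf2 stood at -1.53 in cells with at least 1000 genes and 2000 UMIs. Hbb-bs, a haemoglobin gene of red cells, stood at 126 CPM against 691 CPM and at 5666 CPM in free RNA, and its part in the differences was not tested.

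Against upper follicle keratinocytes, 592 of 6166 genes were at least 2-fold higher and 446 at least 2-fold lower. Tgm5 stood at 277 CPM against 3.03 CPM, which rests on 2 UMIs (log2 ratio 6.52, 4.64 to 9.57). Chat and Ltbp2 had no UMI in the upper follicle and were at least 11.9-fold and 14.9-fold higher, taking 3 counts over the group as the limit. Dkk3, Shisa2 and Pdzrn4 stood at 237, 208 and 108 CPM against 10.6, 10.6 and 4.55 CPM. Dab2, Thsd1, Vwa2, Adcy1 and Col5a2 had 1 UMI each in the upper follicle group, so their ratios are loose, from 5.16 for Adcy1 to 5.75 for Dab2 (3.22 to 11.08) on the log2 scale.

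Among the genes lower than in the upper follicle were 2 defensins and a chemokine. Cst6, the protease inhibitor cystatin M/E, stood at 237 CPM against 5235 CPM, with 40.9% of the UMIs of the members in 1 cell, and Defb6 and Defb1, antimicrobial β-defensins, at 84.6 and 9.71 CPM against 1788 and 212 CPM. Ccl2, a chemokine for monocytes, stood at 11.1 CPM against 258 CPM. Rgs10, Egr2 and Aadac were 13.8-fold, 13.4-fold and 14.2-fold lower. Of a list of 10 further upper follicle genes 4 of the 7 compared were at least 2-fold lower and none higher, beside 7.23% lower and 9.6% higher of all genes. Against unmarked keratinocytes the same list was on the higher side, at 996 CPM against 496 CPM, with 5 of 7 genes at least 2-fold higher and 1 lower, beside 12.2% and 5.87% of all genes, 2 of the 7 having passed through the members alone. Unmarked keratinocytes had to lack all 7 upper follicle genes of the rule, whereas members could hold up to 2 and the upper follicle group held 3 or more. The order of the groups on this list may be set in part by those limits and is a description. Fst, the activin and BMP antagonist follistatin, which was on this list, stood at 453 CPM in the members and 482 CPM in the upper follicle, a log2 ratio of -0.09 (-0.32 to 0.14), and at 25.6 CPM in unmarked keratinocytes.

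The Wnt pathway, in which secreted ligands bind Frizzled receptors and stabilise β-catenin, is described by the role of its genes. Of 44 genes listed, 26 were compared with unmarked keratinocytes, and 12 were at least 2-fold higher and 4 lower, 11 of the 26 having passed through the members alone. Of the 15 others 2 were higher and 4 lower. Over all genes compared, 12.2% were higher and 5.87% lower, and of those at 20 CPM or more in unmarked keratinocytes 4.02% were higher and 7.06% lower. Of the 6 ligands none was 2-fold higher and 3 were lower: Wnt3 at 15.3 CPM against 68.6 CPM, Wnt4 at 103 CPM against 240 CPM and Wnt10a at 24.96 CPM against 79.5 CPM. In cells with at least 1000 genes and 2000 UMIs their log2 ratios were -1.22, -0.69 and -1.01, so that Wnt4 was no longer 2-fold lower. In the upper follicle Wnt4 stood at 106 CPM, a log2 ratio of -0.05 (-0.54 to 0.44). Of the 10 receptors and co-receptors 6 were at least 2-fold higher, but all 6 were compared only because they were high in the members. Of the 3 that reached 20 CPM in unmarked keratinocytes, Fzd6, Lrp6 and Fzd10, none was 2-fold higher and 1 was lower. Among the 6, Fzd2 stood at 229 CPM against 14.2 CPM, Fzd3 at 118 CPM against 3.86 CPM, Fzd1 at 112 CPM against 13.1 CPM and Fzd7 at 76.3 CPM against 6.99 CPM. Fzd7 was also present in the upper follicle, at 60.6 CPM. Fzd10, the lower one, stood at 18.02 CPM against 50.6 CPM.

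Of the 3 secreted Wnt antagonists compared, Sfrp1 alone reached 20 CPM in unmarked keratinocytes, and Dkk3 and Wif1 passed the filter through the members, so that their direction was fixed by it. Sfrp1, a Frizzled-related protein that binds Wnt ligands, stood at 376 CPM (332 to 423) against 37.0 CPM in unmarked and 25.8 CPM in upper follicle keratinocytes. Dkk3, of the Dickkopf family, stood at 237 CPM (203 to 275) against 7.17 and 10.6 CPM. Wif1, the Wnt inhibitory factor, stood at 58.2 CPM (42.0 to 78.7) against 1.66 and 10.6 CPM, with 19.0% of its UMIs in 1 cell. Inside the cell, Tcf7l2 stood at 105 CPM against 37.4 CPM and Tle1, a Groucho corepressor, at 27.7 CPM against 6.99 CPM. Axin2, a feedback target of the pathway, stood at 24.96 CPM against 37.7 CPM, a log2 ratio of -0.60. Lef1, the partner of β-catenin in the hair matrix, stood at 29.1 CPM, with 486 CPM in hair matrix cells.

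BMP signalling, which acts through receptor-activated Smads on the Id genes, was represented by 15 compared genes of 25, of which 2, Nog and Fstl1, passed through the members alone. Of these 8 were at least 2-fold higher and 1 lower, and of the 13 at 20 CPM or more in unmarked keratinocytes 6 were higher, beside 12.2% of all genes and 4.02% of those at 20 CPM. The Id genes, which hold back differentiation factors, were all higher: Id3 stood at 697 CPM against 253 CPM, Id1 at 279 CPM against 108 CPM, Id2 at 187 CPM against 25.2 CPM and Id4 at 115 CPM against 29.2 CPM. In cells with at least 1000 genes and 2000 UMIs Id1 and Id3, at log2 ratios of 0.82 and 0.93, were no longer 2-fold higher. The inhibitory Smad7 stood at 97.1 CPM against 34.6 CPM. Among antagonists other than Grem1, Fst has been given and Nog, which encodes noggin, stood at 27.7 CPM against 1.29 CPM. The ligand Bmp4 stood at 11.1 CPM against 47.1 CPM, a log2 ratio of -2.09 that was -4.62 without the highest doublet scores and -1.11 in cells with at least 1000 genes and 2000 UMIs. Bmp2 stood at 29.1 CPM against 30.4 CPM. The receptors Bmpr1a and Bmpr2 were at log2 ratios of 0.42 each.

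**Figure D4:**
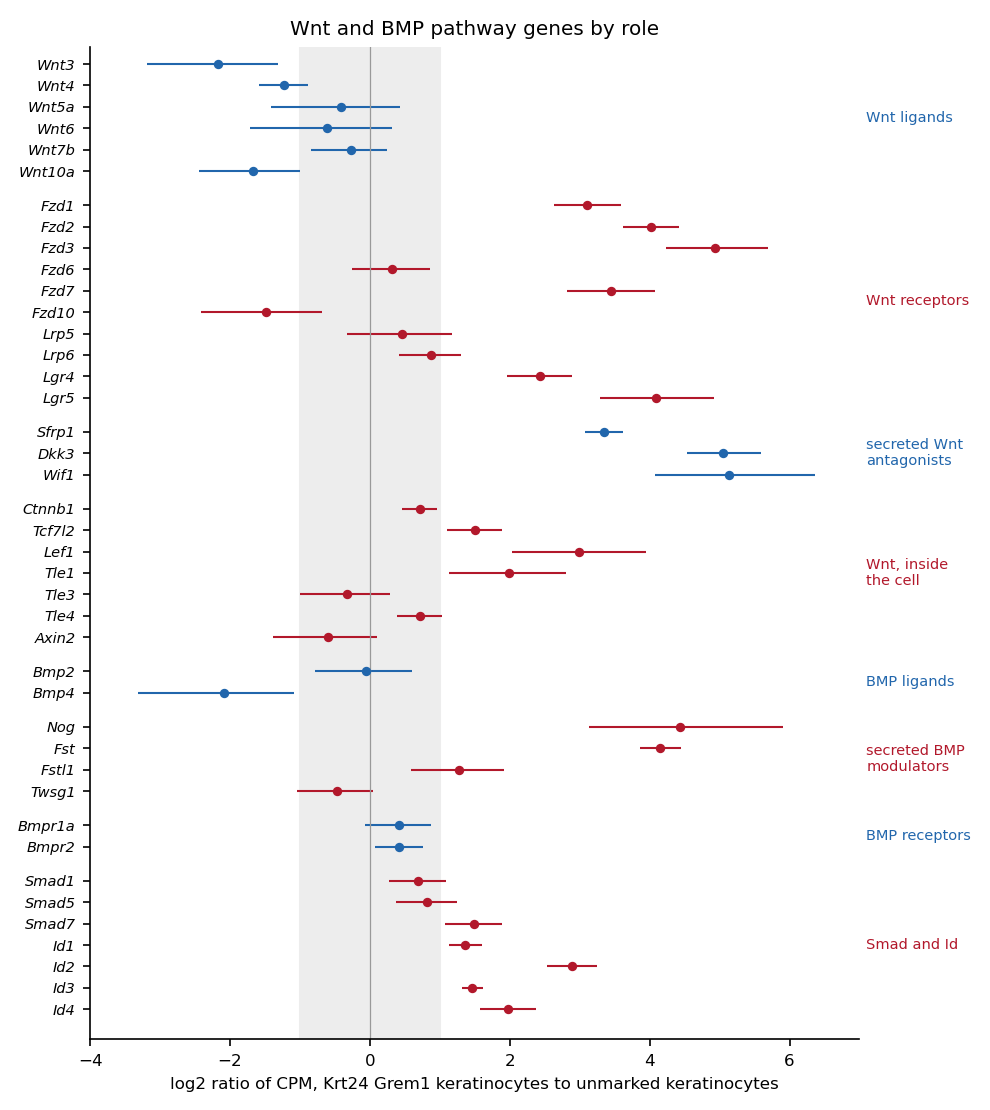
Log2 ratio of CPM between the members and unmarked keratinocytes for every compared gene of the Wnt and BMP lists, grouped by role, with 95% exact intervals from the split of the UMIs; the grey band marks less than a 2-fold difference. Genes under 20 CPM in unmarked keratinocytes could only lie to the higher side; among the others Sfrp1 lies at 3.35 and the ligands Wnt3, Wnt4, Wnt10a and Bmp4 between -2.17 and -1.22.

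Genes of the matrix and of adhesion were compared for 18 of 36, of which 12 were at least 2-fold higher and 1 lower, and 10 of the 18 had passed through the members alone. Of the 8 others 3 were higher and 1 lower, beside 4.02% and 7.06% of all genes of that kind. The list summed to 2534.5 CPM in the members, 556 CPM in unmarked keratinocytes and 5517 CPM in fibroblasts. The part of fibroblast RNA in this list was not tested. Postn and Npnt, given above, also belong to this list. Egfl6, which encodes a basement membrane protein, stood at 80.4 CPM against 9.01 CPM in unmarked and 9.09 CPM in upper follicle keratinocytes. Col6a1 stood at 90.1 CPM against 10.5 CPM, Col18a1 at 126 CPM against 40.8 CPM and Col12a1 at 69.3 CPM against 19.1 CPM. The integrin chains Itgb6 and Itgb8 stood at 51.3 and 33.3 CPM against 14.7 and 2.39 CPM. Of 12 genes that anchor all basal keratinocytes none was past 2-fold in either direction. Of all genes at 20 CPM or more in unmarked keratinocytes 4.02% were higher and 7.06% lower, so this does not set the list apart. Against the upper follicle 3 of the 12 were at least 2-fold higher and none lower, beside 2.94% and 8.5% of all genes at 20 CPM there. Col17a1 stood at 2069 CPM against 1705 CPM in unmarked keratinocytes and Itga6 at 250 CPM against 410 CPM. The log2 ratio of Itga6 was -0.72, and -1.03 when the rule was applied after thinning.

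Among growth factor pathways, the hedgehog target Gli1 stood at 30.5 CPM against 1.29 CPM and the hedgehog receptor and target Ptch1 at 59.6 CPM against 17.8 CPM. Fgfr1 stood at 199.7 CPM (168 to 235) against 13.6 CPM, whereas Fgfr2, the receptor of basal keratinocytes, stood at 92.9 CPM against 138 CPM. Igfbp3, an insulin-like growth factor binding protein, stood at 168 CPM against 695 CPM. Of the 15 compared genes of hedgehog, FGF and EGF signalling 5 were at least 2-fold higher and 2 lower. Over all genes compared these shares were 12.2% and 5.87%, and the 5 had all passed through the members alone. Of the 10 others none was higher and 2 lower, beside 4.02% and 7.06% of all genes at 20 CPM or more in unmarked keratinocytes. Of 16 TGF-β and Notch genes 5 were higher and 2 lower, and 5 had passed through the members alone. Of the 11 others 1 was higher and 2 were lower, beside 4.02% and 7.06% of all such genes, which is too few to set the list apart. The higher one was Jag1, a Notch ligand, which stood at 141 CPM against 46.4 CPM.

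Il31ra was among the genes of the rule, and the rest of its pathway was therefore examined. The receptor works as a pair with the oncostatin M receptor and signals through JAK1, JAK2 and STAT proteins. Osmr stood at 27.7 CPM (16.9 to 42.8) in the members and 26.9 CPM (22.7 to 31.6) in unmarked keratinocytes, a log2 ratio of 0.05 (-0.71 to 0.73). That ratio was -0.95 in members with at least 3 of the 6 genes and -0.70 in cells with at least 1000 genes and 2000 UMIs. With a keratin sum of at least 100 per 10000 it was 0.15. Jak1 stood at 70.7 CPM against 106 CPM, Jak2 at 40.2 CPM against 27.0 CPM and Stat3 at 72.1 CPM against 99.3 CPM. Of 11 compared genes of the list 1, Il6ra, was at least 2-fold lower, and 1, Stat5b, higher, at 20.8 CPM against 10.3 CPM. Stat5b passed the filter through the members alone, and of the 10 others none was higher. With 12.2% of all genes higher and 5.87% lower, 1 of 11 in each direction does not set the list apart. The ligand genes Il31, Osm, Il6 and Lif had no UMI in the members, which at 3 counts allows up to 4.16 CPM.

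Genes of the relatives of Angptl7 and Wfdc3 were mostly sparse. Of 14 genes, only Angptl2, another secreted angiopoietin-like protein, had enough UMIs to be compared, at 43.0 CPM against 6.81 CPM and with 179 CPM in fibroblasts. Among 22 other type I keratins, 11 had no UMI in the members, and Krt17, given above, was the most abundant. Of a list of 9 genes of the companion layer and outer root sheath, Krt17 included, 3 of 6 compared were at least 2-fold higher and 2 lower, beside 4.02% and 7.06% of all genes at 20 CPM or more in unmarked keratinocytes. Barx2, a homeobox gene, stood at 149.7 CPM against 33.5 CPM in unmarked and 165 CPM in upper follicle keratinocytes. Of the hair matrix and germ genes 4 were compared, and of the 2 that reached 20 CPM in unmarked keratinocytes neither was 2-fold higher. The others, Lef1 and Hoxc13, passed through the members alone, Hoxc13 at 34.7 CPM against 7.36 CPM. Krt35, a hair keratin, stood at 65.2 CPM, but 29 of its 47 UMIs came from 1 cell.

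Among genes of differentiating keratinocytes a few stood apart, while the median log2 ratio of the list was 0.21. Sbsn, which encodes suprabasin, stood at 1511 CPM against 406 CPM in unmarked and 808 CPM in upper follicle keratinocytes, and Calml3, a calmodulin-like protein of epithelia, at 331 CPM against 20.8 and 81.8 CPM. Both were widespread, with UMIs in 73.6% and 46.4% of the members. Lor, the cornified envelope protein loricrin, stood at 559 CPM against 25.4 CPM, but 381 of its 403 UMIs, or 94.5%, lay in 1 member, and its log2 ratio of 4.46 was 0.63 without the highest doublet scores. Of the 10 suprabasal genes compared 3 were at least 2-fold higher, Lor included, and 1 lower, beside 4.02% and 7.06% of all genes at 20 CPM or more in unmarked keratinocytes. Ivl had no UMI.

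Genes of proliferation were lower in the members. Of 13 compared cell cycle genes 8 were at least 2-fold lower (5.87% of all genes) and 1, Cdkn1c, which encodes the cell cycle inhibitor p57, higher, with a median log2 ratio of -1.12 (all genes 0.10). Cdkn1c passed the filter through the members alone, and of the 12 others none was higher. Mki67 stood at 33.3 CPM (21.3 to 49.5) against 90.0 CPM in unmarked and 102 CPM in upper follicle keratinocytes, and Top2a, the topoisomerase of dividing cells, at 40.2 CPM (26.9 to 57.8) against 112 and 120 CPM. In cells with at least 1000 genes and 2000 UMIs the log2 ratios of Mki67 and Top2a to unmarked keratinocytes were -0.96 and -0.92, in place of -1.43 and -1.48. They were -2.81 and -4.45 in members with 0 of the 7 genes, and Top2a was at -0.52 in members with at least 3 of the 6. Ube2c stood at 9.71 CPM against 60.0 CPM. Ccnd1 did not follow, at 169 CPM against 170 CPM. After thinning, Mki67 was found in 1.52% of the members and 4.62% of unmarked keratinocytes, but also in 5.202% of the immune cells.

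**Figure D5:**
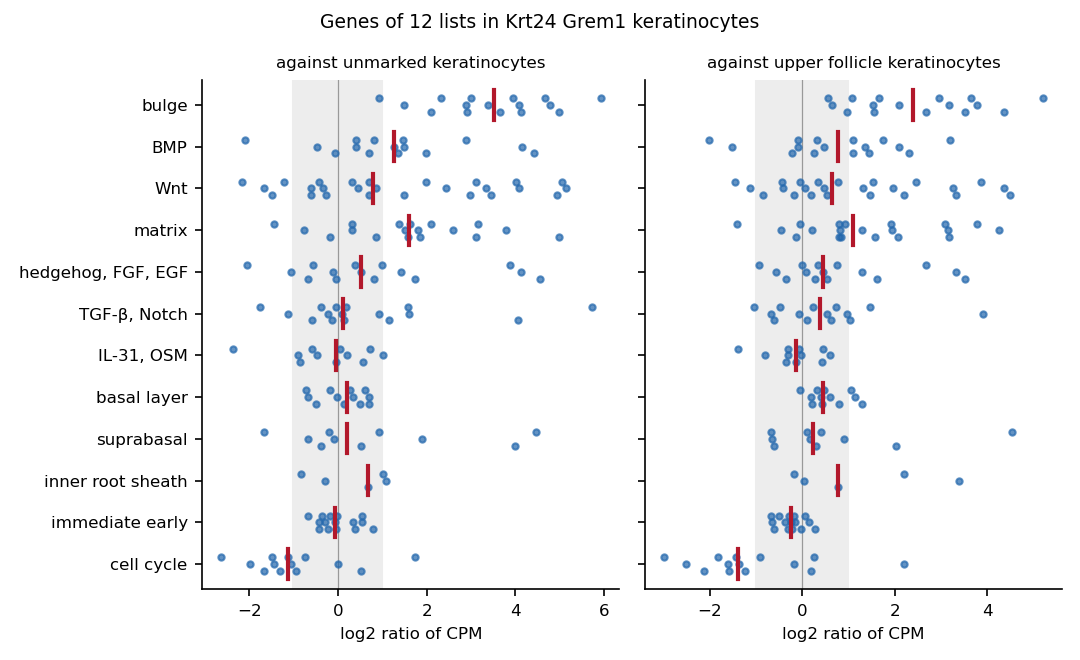
Log2 ratio of CPM between the members and unmarked keratinocytes (left) or upper follicle keratinocytes (right) for each compared gene (points) of 12 lists (bulge, BMP, Wnt, matrix, hedgehog with FGF and EGF, TGF-β with Notch, IL-31 with OSM, basal layer, suprabasal, inner root sheath, immediate early and cell cycle) with the median of the list (red bar); the grey band marks less than a 2-fold difference. Among these 12 the bulge list has the highest median (3.52 and 2.38) and the cell cycle list the lowest (-1.12 and -1.40); lists of other cell types are not plotted, and the fibroblast (3.70 against the upper follicle) and immune (-1.79 and -3.12) medians lie beyond them. Genes under 20 CPM in the comparison group could only lie to the higher side. Against unmarked keratinocytes these were 9 of the 16 bulge genes and 1 of the 13 cell cycle genes, so the order of medians is a description.

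Markers of other cells were examined because a barcode may hold RNA of a neighbour. Several of these lists were higher in the members than in unmarked keratinocytes, and their part in the results was not tested. The sebocyte list summed to 215 CPM (182 to 252) in the members against 131 CPM (122 to 141), and its genes Awat2, Elovl3, Pparg and Soat1 had no UMI. The immune list summed to 30.5 CPM against 60.9 CPM in unmarked keratinocytes, with Ptprc, Cd52 and Tyrobp at 0 UMIs, and the endothelial list to 18.02 CPM (9.60 to 30.8) against 9.93 CPM (7.46 to 12.96). The list of pigment cells summed to 111 CPM (88.0 to 138) against 65.5 CPM (58.9 to 72.7), led by Mitf at 54.1 CPM against 10.1 CPM, whereas the melanin genes Dct, Pmel, Tyrp1 and Mlana were at log2 ratios between -0.13 and 0.08. Muscle and pericyte genes summed to 204 CPM against 195 CPM, with Acta2 and Rgs5 at 0 UMIs. The inner root sheath list summed to 336 CPM against 426 CPM. In free RNA these lists were higher than in the members, at 431 CPM for sebocyte, 551 CPM for immune, 829 CPM for pigment cell and 1894 CPM for inner root sheath genes.

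Fibroblast genes were the most abundant of these lists, at 1080.1 CPM (1006 to 1159) against 589 CPM in unmarked and 105 CPM in upper follicle keratinocytes, beside 2325 CPM in free RNA. The most abundant was Sparc, at 329 CPM and in 36.1% of the members. The collagens Col1a1, Col1a2 and Col3a1 were confined to few cells: 294 of the 330 members had none, and 3 members held 83.9% of the 286 UMIs. Dcn stood at 284 CPM, 64.9% of it in 3 cells, against 10376 CPM in fibroblasts. Barcodes that held 2 or more UMIs over these collagens, Ptprc, Pecam1 and Cd74, among them 9 members, were also left out. In the remaining cells 15 of 16 bulge genes were at least 2-fold higher, with a median log2 ratio of 3.53. In the main comparison 9 of 16 bulge genes had passed through the members alone, and 12.2% of all genes were at least 2-fold higher. The part of fibroblast RNA in the bulge list was not tested.

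The members were not uniform. When they were clustered without the genes of the rule, the Leiden method at a resolution of 0.5 gave 3 subgroups of 214, 62 and 54 cells. At resolutions of 0.3 and 1.0 it gave 2 and 6, so the number is a setting and the subgroups are called by number. Their leading genes come from the clustered cells themselves and are a description.

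Subgroup 1, the largest, was led by Cd34, Tgm5, Tbx1, Moxd1, Pdzrn4 and Lamb3. It had the highest bulge list level, 6513 CPM, the highest Krt15, 15843 CPM, and the lowest Krt14, 1274 CPM. Krt24 stood at 826 CPM and Grem1 at 675 CPM. Subgroup 2 was led by Cfap57, Calm4, Tgfb2, Ifngr1, Clca3a2 and Il1r2. Its bulge list stood at 2470 CPM and Lgr5 at 4.48 CPM, against 98.8 CPM in subgroup 1, and it had more Krt14 (5442 CPM) and Krt17 (4254 CPM). The suprabasal list stood at 19131 CPM there, against 9788 and 8967.5 CPM in subgroups 1 and 3. The companion layer and outer root sheath list stood at 4635 CPM, against 1968 and 3557 CPM. Subgroup 2 held 223099 of the 721244 UMIs of the members, so its 62 cells weigh more in the summed levels than their number. Krt24 stood at 314 CPM and Grem1 at 287 CPM in these cells, which were deeper, with a median of 2605 UMIs against 1547.5.

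Subgroup 3 was led by Atf3, Btg2, Adamts1, Zfp36, Nr4a1 and Socs3, early response genes that are known to be induced by handling of tissue as well as by signals. A list of 15 such genes summed to 34772 CPM there, against 3489 CPM in subgroup 1 and 7140.3 CPM in subgroup 2. The same list summed to 10422 CPM in all members and 11096 CPM in unmarked keratinocytes, with none of its 15 genes past 2-fold. Of all genes at 20 CPM or more in unmarked keratinocytes 4.02% were higher and 7.06% lower, so this count does not set the list apart. Most of the fibroblast RNA of the members lay in subgroup 3 as well, at 4252 CPM against 445 and 215 CPM. The part of tissue dissociation in this subgroup was not tested.

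In PG, 2715 of 4699 kept barcodes passed the keratin limit, but only 1 met the whole rule, or 0.0213% of the kept barcodes (0.000539 to 0.119), against 3.71% in skin. That barcode held 2 UMIs of Grem1 and 1 of Angptl7, none of Krt24, Cd34, Lhx2 or Postn, and 44 of the fibroblast gene Dcn. Krt24 and Lhx2 had no UMI in any kept PG barcode, which for 15270076 UMIs and 3 counts allows 0.196 CPM, against 24.3 and 42.6 CPM over all kept skin barcodes. Sox9, by contrast, stood at 176 CPM in PG and 106 CPM in skin. Other genes of the rule and of the bulge list were also present in PG. Grem1 had 51 UMIs in 30 cells and Angptl7 49 in 34, whereas Wfdc3, Col8a2 and Il31ra had 2, 3 and 2 UMIs. Cd34 stood at 49.8 CPM and Postn at 27.2 CPM in PG, against 101 and 119 CPM in skin. No barcode sequence was kept in both libraries. With 1 library each, the tissue and the library cannot be told apart.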

How the data were processed

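Single-cell RNA libraries (10x Chromium, 3′ end, with UMIs) of back skin and PG were analysed, 1 library per tissue, each pooling cells of 3 mice. The authors deposited unfiltered UMI counts per gene and barcode (32285 genes), which were made with Cell Ranger 4 on mm10 per the submitters' processing notes. The skin library held 37675226 UMIs and the PG library 26288071. A barcode was kept from 500 genes and 1000 UMIs upwards, if its mitochondrial share was 10% or lower.

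Group totals of the counts were expressed as CPM with exact Poisson intervals. Shares have exact Clopper-Pearson intervals, and ratios of CPM have exact binomial intervals of the split of the UMIs. All are 95% intervals for counting error only. Genes were compared if they reached 20 CPM in either group and 10 UMIs over both, and a 2-fold difference was counted. A ratio to a group with 0 UMIs was computed against 3 counts. No p-value was computed, since there are no replicates. The scripts were tested on simulated data.

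Fibroblasts, immune cells and hair matrix cells were set by marker genes in the same library: fibroblasts by Col1a1, Col1a2 and Col3a1, immune cells by Ptprc with 2 further immune genes, and hair matrix cells by 2 or more of Lef1, Msx2, Hoxc13 and Msx1, so Lef1 and Hoxc13 are no finding there. No doublet caller was part of the rule, and removal of the highest doublet scores was an alternative. It took out 634 of the 8899 kept skin barcodes, 46 of the 330 members among them. The share of members among kept barcodes went from 3.71% to 3.44%, so members were removed more often than other barcodes. Subgroups came from Leiden clustering on 1000 variable genes, 15 principal components and 15 neighbours.

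Named genes were those of the lists, and the 20 highest and 12 lowest ratios to unmarked keratinocytes and the 12 highest and 8 lowest to upper follicle keratinocytes, with at least 50 CPM and 10% of cells in the higher group, without the genes of the rule and mitochondrial and ribosomal protein genes. The members and the lists were chosen with earlier results of these data known. Gene positions are from GENCODE M21 and promoters from RefSeq. Python 3.11.15, numpy 2.4.6, scipy 1.17.1, pandas 2.3.3, scikit-learn 1.9.0, igraph 0.11.9, leidenalg 0.10.2 and matplotlib 3.10.9 were used.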

Additional observations from a re-analysis of the deposited data

How the results depend on the processing

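The number of members followed the rule: 330 became 156 with at least 3 of the 6 genes, 209 when cells were thinned to 1000 UMIs first, 84 with at least 1000 genes and 2000 UMIs, and 197 with 0 of the 7 upper follicle genes. It lay between 242 and 342 under the other planned settings. A gate on 4 or more bulge genes, chosen after seeing the data, gave 624 cells. Of the bulge list, 15 or 16 genes were at least 2-fold higher than in unmarked keratinocytes under the 16 other rules for barcodes and members and with every cell weighted equally, applied to this count after seeing the data. The count was not made for the gate, which uses the same genes, or under the other filters on genes. In the main comparison 9 of the 16 compared bulge genes passed through the members alone, so their direction was fixed by the filter. Of the 7 others 6 were higher. Over all genes compared 12.2% were higher, and 4.02% of those at 20 CPM or more in unmarked keratinocytes.

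The counts over all genes depended on the filter. At 5 CPM, with the minimum of UMIs lowered to 3 as well, 1738 genes were higher and 793 lower than in unmarked keratinocytes, and 1467 and 1120 than in the upper follicle. At 100 CPM these were 143 and 83, and 111 and 70. After thinning, 680 were lower than in unmarked and 930 higher than in upper follicle keratinocytes, where the latter group had 43 cells. With the ratios centred on their median over all genes (log2 0.10), 638 were higher and 415 lower than in unmarked keratinocytes.

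Of 1472 ratios of 92 genes under 16 settings, 154 moved beyond their counting interval and 1 reversed: Lor, at a log2 ratio of 4.46, stood at -0.0005 when the rule was applied after thinning, and the cause was not tested. Of the ratios that were at least 2-fold, 94, of 49 genes, moved by over 1.5 times. Without the highest doublet scores the log2 ratio of Bmp4 went from -2.09 to -4.62, Epgn from -2.79 to -5.74, Wnt3 from -2.17 to -3.57, Dcn from 1.54 to 3.29 and Lor to 0.63. In cells with at least 1000 genes and 2000 UMIs Bmp4 stood at -1.11, Epgn at -2.08 and Wnt3 at -1.22. With 0 of the 7 genes Top2a went from -1.48 to -4.45, and with at least 3 of the 6 to -0.52. Under at least 1 setting 10 genes were no longer 2-fold: Dcn, Sparc, Top2a, Krt6a, Lor, Id1, Id3, Mki67, Wnt4 and Hbegf. In cells with 1000 genes and 2000 UMIs Id1 stood at 0.82, Id3 at 0.93 and Wnt4 at -0.69, and with a keratin sum of at least 100 Dcn stood at 0.27 and Krt17 at 1.496, from 2.14. The count in PG was 0 in place of 1 with a keratin sum of at least 100, with at least 3 of the 6 genes, after thinning, without the highest doublet scores, without barcodes of other cell types, with 0 of the 7 genes, and without Grem1 or Angptl7 in the rule. No paired analysis was possible because each tissue has 1 library. With 721244 UMIs in the members, genes under 4.16 CPM are below 3 counts.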

Other observations

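Some abundant genes outside the lists were higher in the members than in unmarked keratinocytes, the only group given for them here, and were picked after their values were seen. Ptn, which encodes the heparin-binding growth factor pleiotrophin, stood at 2458 CPM against 165 CPM in unmarked keratinocytes and was found in 95.8% of the members. S100a4, a calcium-binding protein, stood at 1665 CPM against 102 CPM, and Cxcl14, a chemokine of epithelia, at 1778 CPM against 430 CPM.

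The reverse choice, of keratinocytes with UMIs in at least 4 of the 18 bulge genes, was also made after values were seen. Of its 624 cells, 237 were members, which is 38.0% of these cells and 71.8% of the members. Another 212 had none of the 6 genes. The cells of this kind that were not members held Krt24 at 69.5 CPM, Grem1 at 63.9 CPM and Wfdc3 at 73.5 CPM, which the rule kept low, since most of them had fewer than 2 of the 6 genes.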
